A study of Mus musculus with 24 samples.

Results

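The cytosolic heat shock chaperones described here are 10 genes: the Hsp70 family members Hspa1a, Hspa1b, Hspa1l, Hspa2 and Hspa8, the Hsp110 gene Hsph1, the inducible Hsp90 gene Hsp90aa1, the small heat shock protein gene Hspb1, and the co-chaperone genes Dnajb1 and Bag3. They were taken by symbol from a table of 55450 genes, and each of the 10 symbols was on a single row. The table covers 24 RNA-seq libraries in 6 groups of 4, from the cerebellum, the liver and the testes of mice that were either wild-type (WT) or Thumpd1 knockout (KO). Thumpd1 codes for the partner protein with which the acetyltransferase Nat10 places N4-acetylcytidine on tRNA-Leu and tRNA-Ser, and the study asked how its loss changes stress signalling in tissues. The mice, of either sex outside the testes and between 6 and 12 weeks old, were age-matched littermates. The KO allele was made with Cas9 protein and a pair of guides in C57BL/6N eggs, was backcrossed to C57BL/6 and is carried in every cell, so no Cre or transgene limits the loss to a tissue, and both groups were otherwise untreated. Thumpd1 itself checked the labels: it stood at 22.4 ± 1.06 CPM (counts per 1000000 counts of a library, SD, n = 4) in WT and 0.0563 ± 0.0464 in KO cerebellum, at 9.74 ± 0.401 and 0.0567 ± 0.0436 in liver, and at 25.2 ± 0.840 and 0.955 ± 0.200 in testes.

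Cells raise the inducible ones among these chaperones when unfolded protein accumulates. The transcription factor Hsf1 is then released from chaperones, forms trimers and binds heat shock elements, inverted repeats of GAA and TTC, in the promoters of the inducible genes. Hsp70 proteins hold and refold client proteins with ATP, J-domain proteins such as Dnajb1 start that cycle by driving ATP hydrolysis, and Hsph1 and Bag3 reset it by exchanging the nucleotide. Hspa8 is the constitutive Hsp70 of most cells, Hspa1a and Hspa1b are the inducible pair, and Hspa1l and Hspa2 are the Hsp70 genes of male germ cells. Hsp90aa1 codes for the inducible cytosolic Hsp90, which completes the folding of kinases and receptors, and Hspb1 for a small chaperone that binds unfolded clients without ATP.

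The promoters of the inducible pair are shown because their letters are nearly the same while the pair's levels in liver are not. Hspa1a (chr17:34969190-34972156 in mm10, minus strand, a single exon) and Hspa1b (chr17:34956436-34959238, minus strand, a single exon) lie side by side. The windows below, read 5′ to 3′ from the RefSeq table on GRCm38.p6, run from 250 bases before to 50 bases after the start and lie at chr17:34972107-34972406 and chr17:34959189-34959488 on the minus strand. Capitals mark GAANNTTC, the core inverted repeat of a heat shock element, which begins 104 bases before the start in both.
Hspa1a: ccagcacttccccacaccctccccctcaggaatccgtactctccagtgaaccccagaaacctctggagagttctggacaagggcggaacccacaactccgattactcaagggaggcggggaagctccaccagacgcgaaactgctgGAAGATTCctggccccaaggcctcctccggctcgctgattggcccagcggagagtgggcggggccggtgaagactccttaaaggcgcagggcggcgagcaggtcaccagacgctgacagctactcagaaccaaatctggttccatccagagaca
Hspa1b: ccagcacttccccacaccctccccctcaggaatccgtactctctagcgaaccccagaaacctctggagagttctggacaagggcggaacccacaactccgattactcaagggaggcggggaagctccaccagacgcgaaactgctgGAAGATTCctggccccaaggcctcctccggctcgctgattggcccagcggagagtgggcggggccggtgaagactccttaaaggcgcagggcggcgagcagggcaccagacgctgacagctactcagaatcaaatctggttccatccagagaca
These windows differed at 4 of 300 bases, an identity of 98.7%. The coding sequences were 99.4% identical, with 11 differing columns in 1929. The stretch of transcript after them was 47.3% identical, with gaps counted as differences, and the stretch before them was not aligned as a whole. Of the 50-base words of the Hspa1a transcript, 58.8% also occur in Hspa1b, so the assignment of reads between the pair is uncertain, and their sum is tested beside each. Of the same words 7.95% occur in Hspa1l, which was the more abundant gene in testes.

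The next windows belong to Hsph1 and Hspa1l, whose transcript levels differed between KO and WT, that of Hsph1 in liver and that of Hspa1l in testes. Hsph1 (chr5:149614287-149636376, minus strand) has its window at chr5:149636287-149636586, with capitals on GAANNTTC and TTCNNGAA, including a 13-base element, TTCNNGAA followed by 2 free bases and TTC, that begins after the start. Hspa1l (chr17:34972703-34979285, plus strand) starts beside Hspa1a on the other strand, its window at chr17:34972453-34972752 holds none of these letters, and all of it is in lower case.
Hsph1: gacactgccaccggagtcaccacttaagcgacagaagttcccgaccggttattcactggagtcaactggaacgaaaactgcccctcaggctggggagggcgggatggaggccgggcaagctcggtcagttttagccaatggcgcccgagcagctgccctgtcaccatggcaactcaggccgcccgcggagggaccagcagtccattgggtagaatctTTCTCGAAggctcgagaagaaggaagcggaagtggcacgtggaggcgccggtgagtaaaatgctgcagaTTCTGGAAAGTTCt
Hspa1l: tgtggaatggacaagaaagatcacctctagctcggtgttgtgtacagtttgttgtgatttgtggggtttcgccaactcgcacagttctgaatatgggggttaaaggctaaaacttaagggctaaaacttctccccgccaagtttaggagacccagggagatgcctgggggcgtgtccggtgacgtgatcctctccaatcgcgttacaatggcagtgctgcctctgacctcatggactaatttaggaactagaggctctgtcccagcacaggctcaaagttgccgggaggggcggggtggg
Both strands were searched, which for these palindromic letters is the same search. GAANNTTC occurs in 7.86% of 32851 promoter windows of this length, TTCNNGAA in 8.52%, and the 13-base element in either phase, which contains both shorter motifs, in 0.603%. Of the 8 members with a window, GAANNTTC was in Hspa1a, Hspa1b, Hsph1, Bag3 and Hspb1, the last with matches 117 and 97 bases before the start, and none of the motifs was in Hspa1l, Hspa2 or Dnajb1. Hspa8 and Hsp90aa1 had no entry. The Hspa2 window is set on a RefSeq start 194 bases inside the gene model used for the counts. For the other windows this distance was at most 40 bases. A match is a description of the letters only.

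Total counts ranged from 16353797 to 37889615 per library, so that 3 counts, the limit that a count of 0 allows, correspond to between 0.0792 and 0.183 CPM. In each tissue the markers that define it were present, with hepatocyte genes summing to at least 44322 CPM in WT liver, granule cell genes to at least 3493 CPM in WT cerebellum and elongating spermatid genes to at least 9320 CPM in WT testes and at most 0.0545 CPM in WT cerebellum. One liver library, WT replicate 4, had 9.33% of its counts in the noncoding RNA Gm42418, which took no more than 1.16% elsewhere in liver. The labels do not say which libraries came from the same animal, so the p-values measure the spread between these libraries. The paper counts 4 biological replicates per group. Libraries of a group were not equally alike. The chi-square per gene between counts was 8.46 for liver WT replicates 1 and 2, against 83.7 or more for other liver WT pairs. It was 3.21 for testes KO replicates 5 and 6, against 13.7 or more for the other pairs there. In testes WT the highest value, 11.4, was that of replicates 1 and 2. Whether alike libraries share a source was not tested.

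The Hsp70 genes divided the tissues clearly. Shares here are of the summed transcripts of Hspa1a, Hspa1b, Hspa1l, Hspa2 and Hspa8, without the other Hsp70 genes of the wider list given below. Per length of exon, Hspa8 made up 96.6% ± 0.263 of this sum in WT cerebellum and 92.7% ± 1.18 in WT liver, but 6.96% ± 0.520 in WT testes (SD, n = 4). The Hspa8 exons contain the small nucleolar RNA genes Snord14c, Snord14d and Snord14e on the same strand, over 86 to 90 bases each. Length is the union of exons of all annotated transcripts, 4301 bases for Hspa8 and 2472 to 2967 for the other Hsp70 members. A union longer than the expressed transcripts lowers a share, and this was not examined. In WT testes Hspa2 held 54.7% ± 0.239 and Hspa1l 37.9% ± 0.571. Hspa2 stood at 1062, 1114, 1149 and 1144 CPM in the WT testes libraries, between 10.2 and 12.7 CPM in WT cerebellum and between 2.10 and 2.45 CPM in WT liver. Hspa1l stood at 693, 704, 743 and 750.1 CPM in WT testes. In cerebellum it was at 0.104 to 0.529 CPM, from 2.04 to 12.2 counts per library, and in liver at 0 in 3 of 4 WT libraries, and no fold is given against levels this near the floor. Hspa1l shares 1778 bases of exon with Gm10501 on the other strand, which had 57 to 101 counts in cerebellum, 13 to 47 in liver and 46 to 85 in testes. The strand setting of the counting was not given in the sources used here. In testes these counts are small beside the 17054 to 23872 of Hspa1l.

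**Figure D1:**
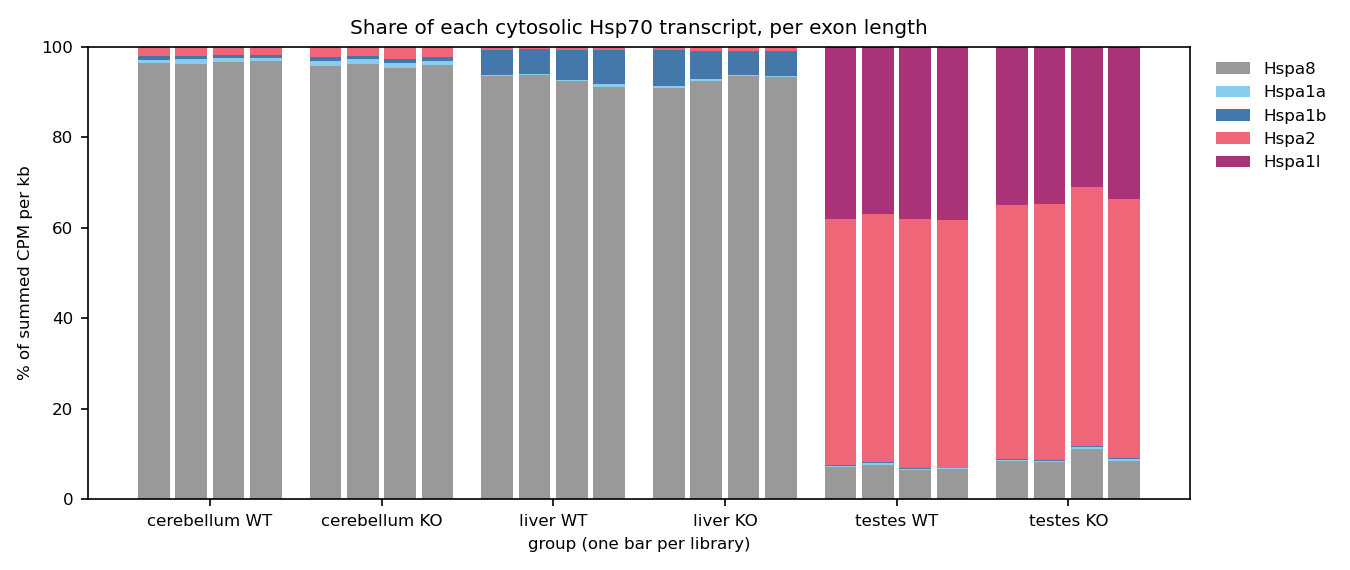
Stacked bars give, for each of the 24 libraries, the percentage of summed CPM per kb of exon held by Hspa8, Hspa1a, Hspa1b, Hspa2 and Hspa1l (y axis), with libraries grouped by tissue and genotype (x axis). Hspa8 fills at least 91.0% of every cerebellum and liver bar, and Hspa2 and Hspa1l are the largest parts of every testes bar.

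Levels of the inducible pair differed between tissues in opposite ways. Hspa1b was at 25.4, 24.5, 22.5 and 22.1 CPM in WT liver, against 5.18, 4.45, 3.39 and 4.46 CPM in WT cerebellum and 4.14, 5.84, 4.54 and 3.86 CPM in WT testes. Hspa1a ran the other way, with 1.38, 1.28, 0.798 and 2.22 CPM in WT liver, 5.47, 6.82, 6.30 and 5.02 CPM in WT cerebellum and 4.75, 6.50, 5.54 and 5.21 CPM in WT testes. For both genes the liver libraries lay apart from all others, with Hspa1b above and Hspa1a below them. Hspa1b thus took 94.3% ± 2.43 of the pair's CPM in WT liver, 42.5% ± 6.40 in WT cerebellum and 45.4% ± 2.11 in WT testes. The share in liver differed from either other tissue with p = 0.0286 in a two-sided exact permutation test, the smallest p that 4 against 4 libraries allow, or 0.0857 when adjusted over 6 such tests. KO and WT did not differ detectably in this share, with exact permutation p = 0.486 in cerebellum, 0.686 in liver and 0.543 in testes.

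Fitted over the 12 WT libraries with limma-voom and TMM (trimmed mean of M values) scaling, 10 of 10 members differed between at least one pair of tissues at an adjusted p under 0.05. Such differences were the rule, since 87.5% of 21697 genes tested were called between liver and cerebellum, 90.9% between testes and liver and 90.3% between testes and cerebellum. Hspa1b was 3.63 ± 0.137 higher in liver than in cerebellum on the log2 scale (SE, limma adjusted p = 7.6e-11), whereas between testes and cerebellum neither Hspa1b (0.31, adjusted p = 0.0944) nor Hspa1a (0.15, adjusted p = 0.458) passed. Hspb1 was 3.44 ± 0.277 higher in liver than in cerebellum, and Bag3, which hands clients to autophagy, 1.91 ± 0.163 higher. On the CPM scale, without TMM, Hspb1 averaged 26.8 and 5.60 CPM in WT liver and cerebellum, and Bag3 36.1 and 21.5 CPM. These folds are smaller. The highest level of Dnajb1 and of Hsp90aa1 was in testes, at 3.75 ± 0.0941 and 1.97 ± 0.0538 above cerebellum. Hspa2 was 6.85 ± 0.0989 higher in testes than in cerebellum, and its liver minus cerebellum difference was -1.12. Hsph1 was at -0.25 in both liver and testes relative to cerebellum, with adjusted p = 0.0453 and 0.0277, and at -1.45 and -0.50 with libraries scaled by their totals alone. These calls of Hsph1 were lost without any one of 10 and of 5 of the 12 WT libraries, with adjusted p of up to 0.168 and 0.0809.

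The order of the levels depended in part on scaling. In liver 17.5% to 31.0% of counts fell in 6 abundant noncoding RNAs, against 6.07% to 7.41% of cerebellum counts and 4.56% to 5.83% of testes counts. The median log2 difference of all genes between liver and cerebellum was 0.02 with TMM scaling and -1.18 when libraries were scaled by their totals alone. Between testes and liver it was 0.83 and 1.78, and between testes and cerebellum 0.37 and 0.11. With totals alone, the liver minus cerebellum difference turned from 0.37 to -0.83 for Hspa8 and from 0.52 to -0.68 for Dnajb1, and the testes minus liver difference turned from -0.86 to 0.09 for Bag3. Hsph1 showed no difference between testes and liver with TMM scaling (0.001 ± 0.103, adjusted p = 0.990), but stood 0.95 higher in testes with totals alone. Per kb of exon and on the CPM scale, WT levels in liver were highest for Hspa8, at 128 ± 26.6 CPM per kb, followed by Hspb1 at 26.0 ± 6.83, Hsp90aa1 at 19.1 ± 2.97 and Bag3 at 14.1 ± 3.70. The spread of Hspb1 overlaps that of Hsp90aa1 and Hsp90aa1 that of Bag3. In WT testes Hspa2 (423 ± 15.1 CPM per kb), Hsp90aa1 (362 ± 15.5) and Hspa1l (292 ± 11.5) led, and in WT cerebellum Hspa8 (225 ± 4.10) and Hsp90aa1 (110.2 ± 3.50).

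**Figure D2:**
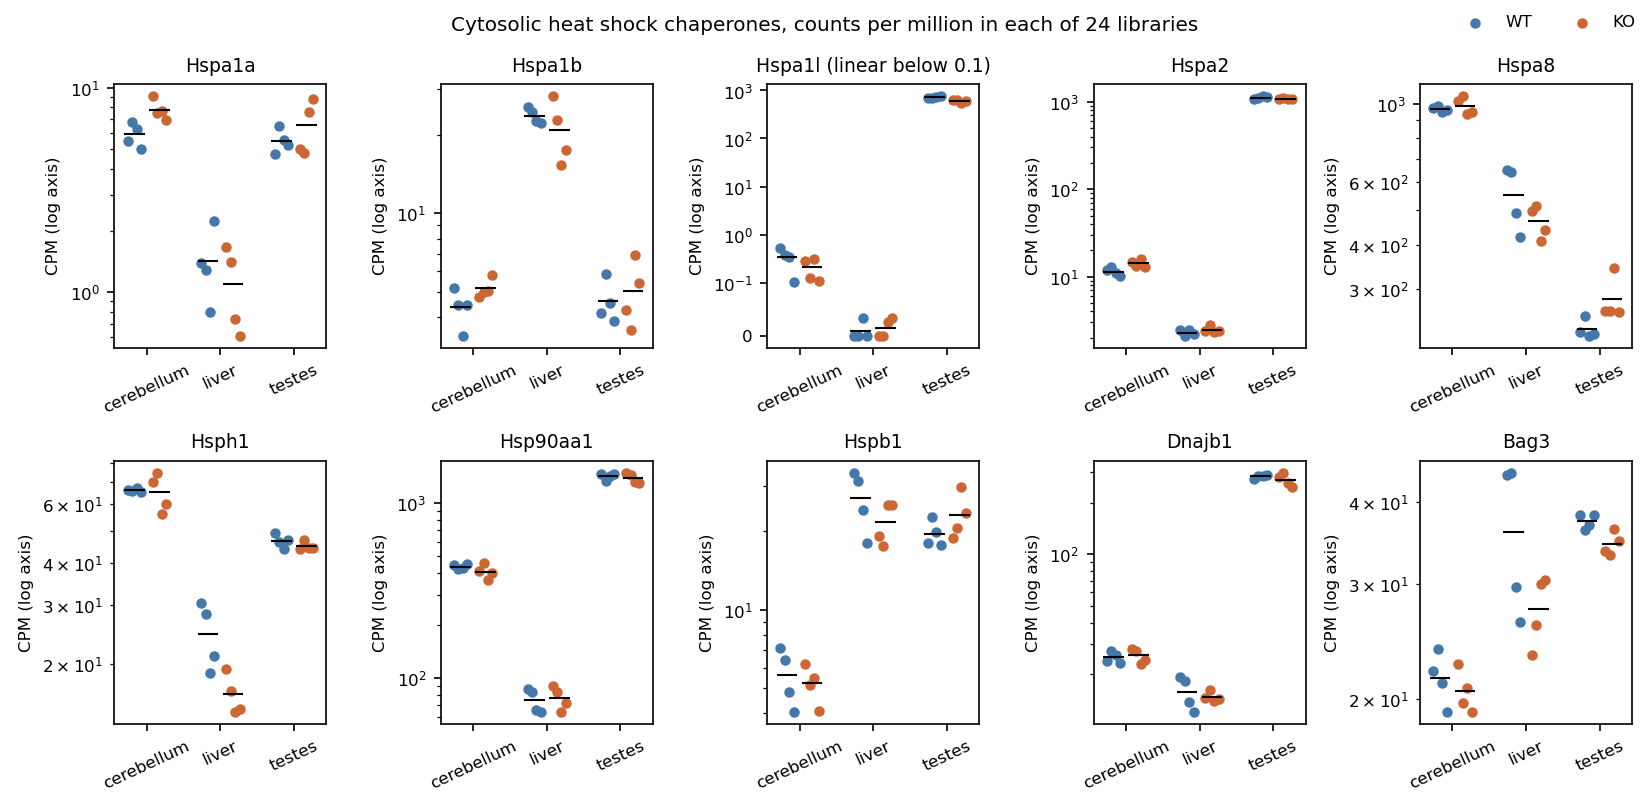
Each panel plots the CPM of a member (log axis, linear below 0.1 for Hspa1l) in every library by tissue, with WT in blue, KO in orange and a bar at the mean of the 4 libraries. Differences between tissues exceed those between genotypes for most members, with Hspa1l and Hspa2 above 500 CPM in testes alone and Hspa1b highest in liver.

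Few members differed between KO and WT. In cerebellum 0 of 9 members tested were called, where 6.44% of all 16225 genes tested were called. In liver 1 of 9 was called, against 5.91% of 12816 genes, and in testes 2 of 10, against 20.5% of 19329 genes. All 3 calls were lower in KO. By direction, 3.93% of all genes tested were called higher and 2.51% lower in cerebellum, 2.79% higher and 3.12% lower in liver, and 9.74% higher and 10.7% lower in testes. The median log2 change of the members tested was -0.0024 in cerebellum, -0.24 in liver and, for testes, -0.0042, beside -0.0059, -0.0031 and 0.0001 over all genes tested, and it was below 0 for 5 of 9, 7 of 9 and 6 of 10 members. As these are bulk samples, fewer cells of a type and less RNA per cell cannot be told apart.

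**Figure D3:**
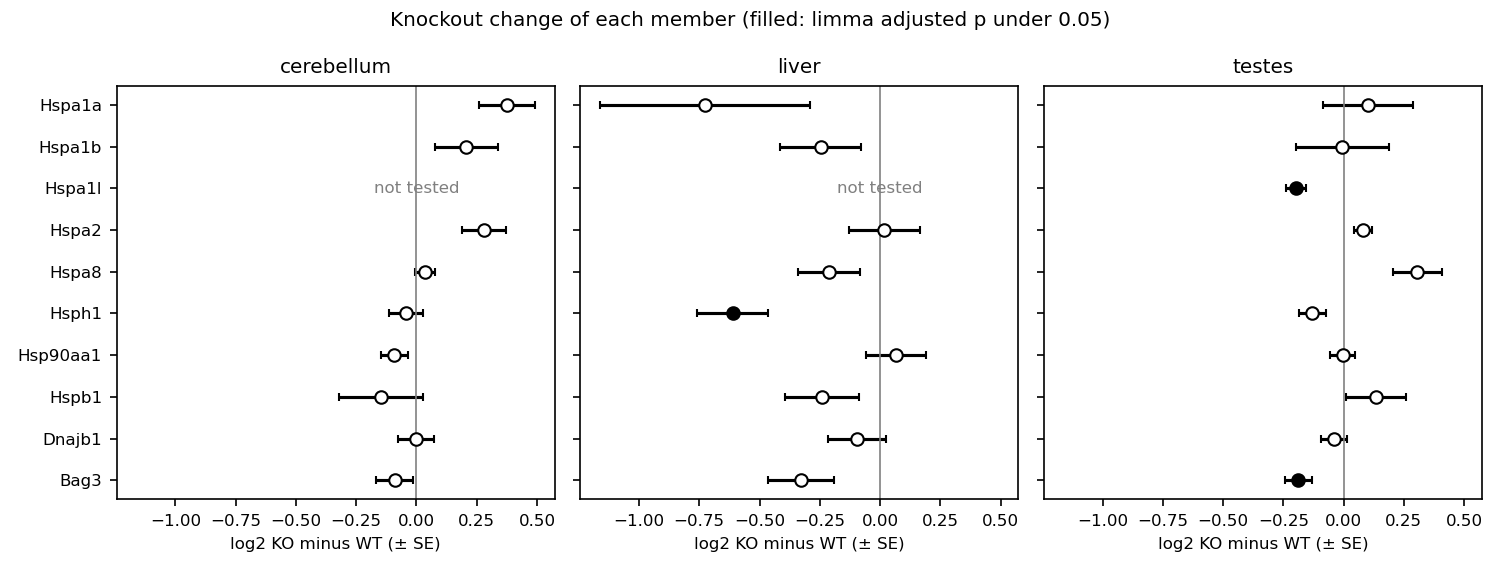
For each member (y axis) the log2 difference KO minus WT (x axis) is given with its standard error in cerebellum, liver and testes, 4 against 4 libraries each, with filled points for an adjusted p under 0.05. The filled points are Hsph1 in liver and Hspa1l and Bag3 in testes, all left of 0.

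Hsph1 carried the largest called change. Its level in liver was 30.4, 28.1, 18.8 and 21.1 CPM in WT replicates 1 to 4 and 19.2, 16.6, 14.3 and 14.6 CPM in KO replicates 5 to 8. The groups overlapped where KO replicate 5 lay above WT replicate 3, and 3 of 4 KO libraries were below every WT library. The log2 difference was -0.61 ± 0.148 (SE), or 0.655-fold, with a limma adjusted p of 0.0374. The adjusted p rose to 0.104 without WT replicate 1, 0.107 without WT replicate 2, 0.0581 without KO replicate 6, 0.0929 without KO replicate 7 and 0.106 without KO replicate 8, and to 0.0817 with no filter on low counts. In cerebellum Hsph1 was at 66.1, 66.0, 67.2 and 65.6 CPM in WT and 70.2, 74.5, 56.3 and 60.2 CPM in KO, so the KO libraries lay on both sides of a narrow WT range (-0.04 ± 0.0704). The KO effect in liver minus that in cerebellum was -0.57 ± 0.154 with an adjusted p of 0.0226 in a limma fit over all 24 libraries, where 7.67% of 11112 genes were called for that difference. This call was lost without liver WT replicate 1 or 2, liver KO replicate 7 or 8, or cerebellum KO replicate 5, with adjusted p between 0.0509 and 0.0624. In testes Hsph1 lay between 44.2 and 49.2 CPM in WT and between 44.0 and 46.9 CPM in KO (-0.13 ± 0.0573, adjusted p = 0.124).

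Of the other 8 liver members tested, 6 had log2 differences below 0 and none passed in the fit reported. Bag3 was at 44.0, 44.3, 29.6 and 26.2 CPM in WT and 23.3, 26.0, 30.0 and 30.4 CPM in KO, a log2 difference of -0.33 ± 0.136 with adjusted p = 0.178, which passed only with sample quality weights (-0.42, adjusted p = 0.0498) among the other tools and settings run on all 8 libraries. Hspa8 was at 652, 642, 491 and 420.0 CPM in WT and 499, 515, 409.6 and 441 CPM in KO (-0.21 ± 0.129, adjusted p = 0.362). In both genes WT replicates 1 and 2 were high and WT replicates 3 and 4 fell within the KO range. Hspa1a (-0.73 ± 0.435, adjusted p = 0.351), Hspa1b (-0.25 ± 0.167, adjusted p = 0.412) and Hspb1 (-0.24 ± 0.155, adjusted p = 0.384) had wide errors, and Dnajb1 (-0.09), Hspa2 (0.02) and Hsp90aa1 (0.07) lay near 0.

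Within the WT liver libraries most members ranked alike. WT replicate 1 was the highest of the 4 for 7 of 9 members and WT replicate 4 the lowest for 6 of 9. All levels, ranks and SDs in this paragraph are of CPM without TMM factors. In liver those factors ran from 0.914 for WT replicate 4 to 1.06 for WT replicate 1. Dividing by the factor raises CPM in WT replicate 4 and lowers it in WT replicate 1. Ranks so scaled were not counted. The median SD within groups was 0.273 log2 CPM for the members in liver, beside 0.180 for all genes tested there. In cerebellum it was 0.134 for the members and 0.104 for all genes, and in testes 0.0852 and 0.149. Averaged over the tested members other than the germ cell genes, log2 CPM centred on the 8 liver libraries was 0.38 and 0.31 in WT replicates 1 and 2, -0.12 and -0.05 in WT replicates 3 and 4, 0.04 and -0.04 in KO replicates 5 and 6, and -0.28 and -0.24 in KO replicates 7 and 8. The genes whose pattern over the 8 liver libraries was most like this mean were Akr1c19, Pex11a and Mctp2, with root mean square differences of 0.050, 0.0538 and 0.0739 log2 CPM among 5942 genes compared. In cerebellum they were Prr14, Dusp5 and Rassf2 (0.0338 to 0.0363), and in testes Ddost, BC003965 and Vat1 (0.0235 to 0.0255).

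**Figure D4:**
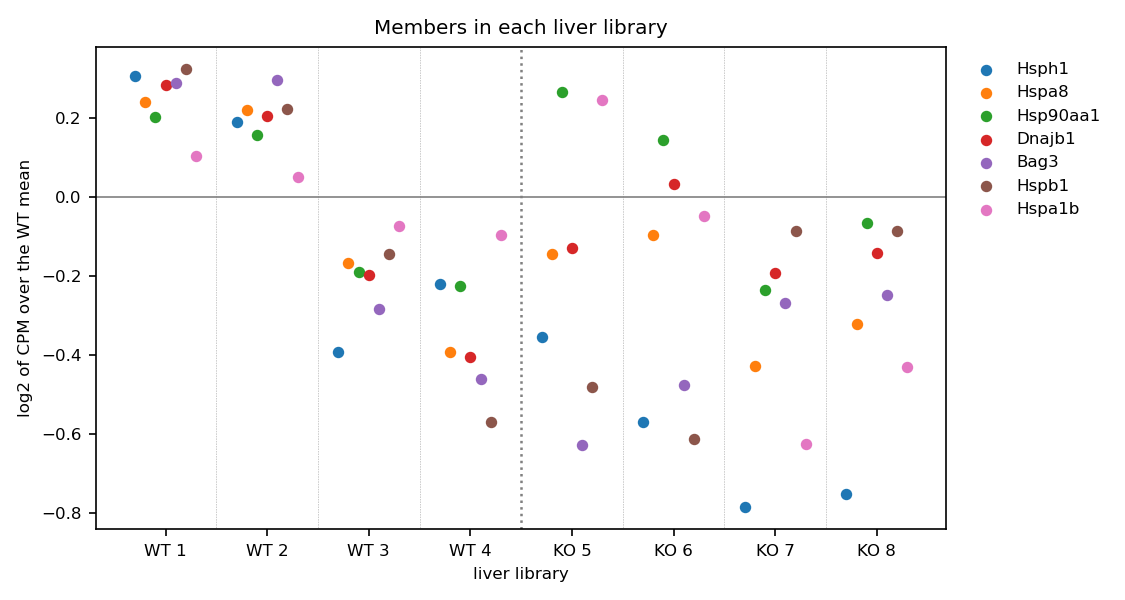
Points give the log2 ratio of CPM to the mean of the 4 WT libraries (y axis) for 7 members in each of the 8 liver libraries (x axis). No TMM factors enter these values. WT replicates 1 and 2 lie above 0 for all 7 members shown, WT replicates 3 and 4 below 0, and Hsph1 lies below 0 in all 4 KO libraries. Hspa1a and Hspa2 are not shown and ranked otherwise, with Hspa1a highest of WT in replicate 4 (2.22 CPM) and Hspa2 lowest of WT in replicate 2 (2.10 CPM).

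Some circadian clock genes differed with genotype in the same livers. Their summed level was 284 to 340 CPM in WT and 247 to 253 CPM in KO, and 5 of 11 tested were called lower and 0 higher. Among them the clock output gene Dbp changed by -2.77 (adjusted p = 0.00100) and the repressor Per2 by -1.01 (adjusted p = 0.00231), with every KO library below every WT library, as was the case in either direction for 12.7% of genes tested in liver. Another 5 of the 11 had log2 differences above 0 that did not pass, from 0.09 for Clock to 0.85 for Per1. Hepatocyte genes were at 44322 to 58137 CPM in WT and 54020 to 80371 CPM in KO, with 1 of 5 called higher. The part of either in the Hsph1 result was not tested, and the time of day at which tissue was taken is not given in the sources used here.

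In testes Hspa1l, the germ cell Hsp70 read from the strand opposite Hspa1a, stood at 693, 704, 743 and 750.1 CPM in WT and 626, 625, 548 and 593 CPM in KO. Every KO library was below every WT library, as was the case in either direction for 28.6% of genes tested in testes. The log2 difference was -0.20 ± 0.0418 (adjusted p = 0.00959), and it kept its call without any of the 8 libraries. Each of these fits left out a single library, so the partner in an alike pair, such as KO replicates 5 and 6, stayed in. The size of the Hspa1l difference depended on scaling, with -0.34 under TMM factors and DESeq2 and -0.33 under edgeR. Its share of the summed transcripts of the Hsp70 members per length was 33.6% ± 1.86 in KO testes, against the 37.9% in WT. Bag3 was at 38.2, 36.2, 36.8 and 38.2 CPM in WT and 33.7, 33.2, 36.4 and 34.9 CPM in KO testes, with 3 of 4 KO libraries below every WT library (-0.19 ± 0.0556, adjusted p = 0.0349). That call was kept without KO replicate 7 or KO replicate 8, was lost without any other of the 8 libraries (adjusted p between 0.0561 and 0.117), and was lost with no filter on low counts (adjusted p = 0.0828).

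Hspa8 was the member with the largest positive difference in testes. It stood at 227, 251, 221 and 224 CPM in WT and 259.9, 260.2, 343 and 258 CPM in KO, so every KO library was above every WT library, with KO replicate 7 far above the other KO libraries. The log2 difference was 0.31 ± 0.103 with adjusted p = 0.0554 and did not pass, although it passed without KO replicate 5 or without KO replicate 6 (adjusted p of 0.0332 to 0.0425) and with sample quality weights (0.22, adjusted p = 0.00828). Without KO replicate 7 the difference was 0.18 (adjusted p = 0.0561). Hspa2 was at 1062 to 1149 CPM in WT and 1077 to 1093 CPM in KO. Its difference was 0.08 ± 0.0367 after quantile normalization (adjusted p = 0.135) but -0.11 with TMM factors, edgeR or DESeq2, so its direction depends on the scaling. Hspb1 (0.13 ± 0.124), Hspa1a (0.10 ± 0.188), Hspa1b (-0.005 ± 0.192), Hsp90aa1 (-0.003 ± 0.0518) and Dnajb1 (-0.04 ± 0.0543) had adjusted p between 0.453 and 0.988.

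Markers of testis cell types moved with genotype as well. Summed elongating spermatid genes were at 9320 to 9815 CPM in WT and 6633 to 8626 CPM in KO testes, with 4 of 5 called lower, and round spermatid genes at 683 to 693 and 551 to 659 CPM, with 2 of 5 called lower. Sertoli cell genes were at 191 to 220.2 CPM in WT and 256 to 358 CPM in KO, with 4 of 6 called higher, whereas 0 of 5 spermatocyte genes were called (680.1 to 746 and 708 to 779 CPM). Their part in the results for Hspa1l, Bag3 and Hspa8 was not tested.

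In cerebellum the inducible pair and Hspa2 had the largest differences. Hspa1a was at 5.47, 6.82, 6.30 and 5.02 CPM in WT and 9.06, 7.55, 7.68 and 6.99 CPM in KO, with every KO library above every WT library, as in either direction for 13.8% of genes tested. Its log2 difference of 0.37 ± 0.117 had a limma p of 0.00683 but an adjusted p of 0.0749, which became 0.0474 without WT replicate 2. Hspa1b was at 5.18, 4.45, 3.39 and 4.46 CPM in WT and 4.79, 4.98, 5.04 and 5.80 CPM in KO, and here the groups overlapped (0.21 ± 0.130, adjusted p = 0.357). The sum of the pair was 9.48 to 11.3 CPM in WT and 12.5 to 13.8 CPM in KO. Tested as a single gene, this sum rose by 0.30 ± 0.0768 on the log2 scale with an adjusted p of 0.0374, and it passed with TMM factors (0.0297), edgeR (0.0326), DESeq2 (0.0269) and sample quality weights (0.0204). It did not pass with no filter on low counts (0.0809) and lost the call without WT replicate 1, 3 or 4 or without KO replicate 5, 7 or 8, with adjusted p between 0.0778 and 0.106. In liver the sum changed by -0.26 ± 0.173 (adjusted p = 0.399) and in testes by 0.07 ± 0.173 (adjusted p = 0.798).

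Hspa2 in cerebellum was at 12.0, 12.7, 10.9 and 10.2 CPM in WT and 14.8, 13.2, 15.8 and 13.0 CPM in KO. The groups did not overlap, but the log2 difference of 0.28 ± 0.0910 had an adjusted p of 0.0857, or 0.0449 without KO replicate 6. The KO effect on Hspa2 in testes minus that in cerebellum was -0.47 ± 0.105 (adjusted p = 0.00513), where 14.5% of 11112 genes were called, and it passed without any single library. This value is from the joint fit of 24 libraries with TMM scaling. Fits of each tissue apart gave a KO effect in testes and cerebellum of -0.11 and 0.29 with TMM factors and of 0.08 and 0.28 with quantile normalization, and the difference was not tested with the latter. Of the 27 differences of a KO effect tested between tissues, 9 members by 3 pairs, this and that of Hsph1 were the only calls. None passed between testes and liver, where 15.9% of genes did, with Hsph1 at 0.43 ± 0.153 (adjusted p = 0.0577) and Hspa8 at 0.36 ± 0.129 (adjusted p = 0.0589), which passed without some of the single libraries, 4 for Hsph1 (down to 0.0106) and 6 for Hspa8 (down to 0.0150). Hsph1 and Hspa8 were also called there with replicate numbers fitted as a block, as given below. The remaining cerebellum members lay between -0.15 for Hspb1 and 0.04 for Hspa8, with adjusted p of at least 0.329, which for Hsp90aa1 became 0.0366 without KO replicate 6. No member was called in cerebellum by edgeR, DESeq2 or TMM factors either, 2 of 9 had an unadjusted p under 0.05 (Hspa1a and Hspa2), as did 3929 of the 16225 genes tested, and with sample quality weights Hspa1a passed at 0.0457.

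Granule cell genes summed to 3493 to 3555 CPM in WT and 3063 to 3253 CPM in KO cerebellum, with 4 of 5 called lower. Forebrain and midbrain genes summed to 449 to 491 and 502 to 563 CPM, with 3 of 4 tested called higher. Choroid plexus genes summed to 980, 1005, 7.41 and 8.26 CPM in WT replicates 1 to 4, with none of 4 called. In KO replicates 5 to 8 they summed to 10.3, 9.78, 334 and 332 CPM. Oligodendrocyte genes summed to 2261 to 2734 CPM in WT and 2644 to 2822 CPM in KO, with 2 of 5 called higher. Circadian clock genes summed to 1085 to 1163 CPM in WT and 992 to 1045 CPM in KO, with 4 of 12 called lower. Their part in the results for the Hspa1a and Hspa1b sum and Hspa2 was not tested.

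The wider chaperone network, a list of 68 heat shock factors, other Hsp70, Hsp60, Hsp40 and small heat shock protein genes, chaperonin subunits, Hsp90 co-chaperones and related genes, was counted in the same way. In cerebellum 5 of 60 tested were called higher and 0 lower, where 3.93% of all genes were called higher and 2.51% lower. In liver 0 were called higher and 1 of 59 lower, where 2.79% and 3.12% of all genes were, and in testes 3 higher and 4 lower of 64, where 9.74% and 10.7% were. The median log2 change of the list was -0.0087, -0.02 and -0.0058. The risers in cerebellum included the Hsp90 co-chaperone Fkbp5, a glucocorticoid-responsive immunophilin (0.52 ± 0.110, adjusted p = 0.0175), the heat shock factor Hsf4 (0.53 ± 0.133, adjusted p = 0.0356), the Hsp90 ATPase activator Ahsa1 (0.14 ± 0.0389, adjusted p = 0.0451) and the ubiquitin gene Ubb (0.17 ± 0.0460, adjusted p = 0.0439). The liver gene was Dnajb5, a J-domain protein like Dnajb1, at -0.77 ± 0.165 (adjusted p = 0.0226) with every KO library below every WT library, beside the 12.7% of liver genes without overlap. In testes Fkbp5 rose by 0.34 ± 0.0839 (adjusted p = 0.0177), the constitutive Hsp90 gene Hsp90ab1 by 0.28 ± 0.0749 (adjusted p = 0.0230) and the mitochondrial chaperonin gene Hspd1, whose exons overlap Hspe1 on the other strand over 112 bases, by 0.28 ± 0.0792 (adjusted p = 0.0296). The testis chaperonin subunit Cct6b (-0.24 ± 0.0617, adjusted p = 0.0204), the sperm J-domain gene Dnajb13 (-0.32 ± 0.0632, adjusted p = 0.00758) and Hspa12b (-0.38 ± 0.0935, adjusted p = 0.0173) were lower. Dnaja4, outside the naming rule and chosen after its value was seen, was also lower (-0.18 ± 0.0568, adjusted p = 0.0408), was followed under the alternatives in the counts of calls alone, and in liver stood at 0.63 (adjusted p = 0.0541) with every KO library above every WT library. In the testes calls named here every KO library lay on one side of every WT library, beside the 28.6% of testes genes without overlap. Leaving out single libraries took the call from Ahsa1 in 7 of 8 fits, from Hsf4 and Ubb in 6, from Hsp90ab1 and Hspd1 in 4, from Dnajb5 and Cct6b in 3, and from Fkbp5 in either tissue and Hspa12b in 2, with adjusted p of at most 0.131, while Dnajb13 kept it. The call of Ubb, whose libraries overlapped, was also lost with TMM factors (0.12, adjusted p = 0.154), edgeR (adjusted p = 0.158), DESeq2 (adjusted p = 0.123) and no filter on low counts (adjusted p = 0.0670). That of Hsp90ab1 was lost with TMM factors (0.18, adjusted p = 0.0744), edgeR (adjusted p = 0.0699) and DESeq2 (adjusted p = 0.0607). With no filter those of Ahsa1 (adjusted p = 0.0980), Hsf4 (adjusted p = 0.0780) and Hspd1 (adjusted p = 0.0592) were lost. The heat shock factor genes Hsf1 and Hsf2 were called in none of the tissues, with log2 changes in cerebellum, liver and testes of 0.009, -0.14 and -0.004 for Hsf1 and of -0.18, 0.11 and -0.19 for Hsf2.

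**Figure D5:**
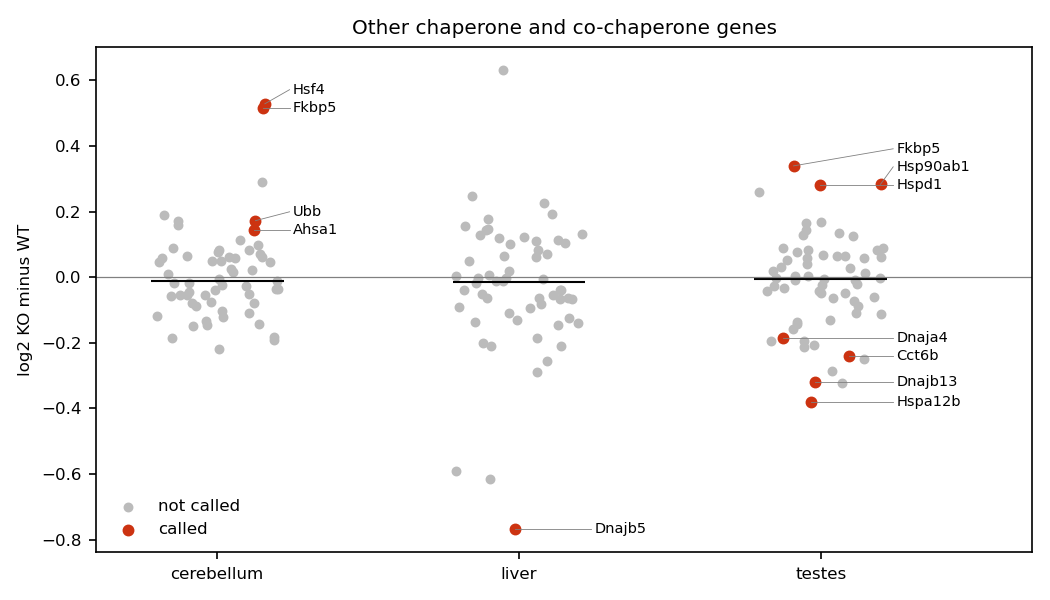
Each point is the log2 difference KO minus WT (y axis) of a tested gene of the 68-gene list other than the gene left out of the text in cerebellum, liver or testes (x axis), with called genes in red and named and a bar at the median. The 3 medians lie close to 0, the 4 named cerebellum genes lie above 0 and the named liver gene at -0.77.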

How the data were processed

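Tissue was frozen in RNAlater, and RNA was extracted with Trizol per the labels, depleted of ribosomal RNA, made into stranded total RNA libraries and read as paired ends on a NovaSeq 6000. The authors aligned reads with STAR to mm10 and made the deposited expected counts per gene with RSEM on GENCODE M21, with versions and the strand setting not given in the sources used here. RSEM divides reads that match several genes by a model. Groups came from the labels, 0 columns were left unmatched, and 108 symbols on more than one row were kept apart by identifier.

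Expected counts entered limma as deposited and were rounded for edgeR and DESeq2. Each tissue was fitted apart after the study's methods, on genes with at least 1 CPM in at least 4 of 8 libraries (the group size, a number the methods do not give), with quantile normalization and limma-voom (limma 3.58.1, R 4.3.3), two-sided, and Benjamini-Hochberg adjustment over all genes tested at a threshold of 0.05. Comparisons of tissues used TMM factors (edgeR 4.0.16) over 24 libraries (KO effects, genes passing in all 3 tissues) or 12 WT libraries. CPM per kb divides CPM by the length of the union of exons. Shares were compared with exact permutation tests (scipy 1.17.1). Floors cover counting error only.

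Alternatives were TMM factors, edgeR's quasi-likelihood test, DESeq2 1.42.0, no filter, sample quality weights, library totals alone, leaving out each library, replicate numbers as a block, and summing Hspa1a with Hspa1b. Running that sum under the other settings was added after seeing the data. Leaving out a single library keeps any library like it in the fit, and no fit left out a pair. The tests were checked on simulated data. Named are all members, up to 6 called genes of the 68-gene list with the lowest p per tissue, Thumpd1, and the 3 genes per tissue whose centred log2 CPM was most like the mean of the members without Hspa1l and Hspa2, among genes with a mean log2 CPM of at least 3 and an SD at least 0.5 times that of the mean, without predicted genes. A gene that the rule picks in cerebellum is counted but not reported here. Clock genes and Gm42418 are named beside results they moved with, after their values were seen. The members and lists were chosen with earlier results of these data known. Promoter windows are from RefSeq, and 8 of 10 members matched.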

Additional observations from a re-analysis of the deposited data

Results flagged for a closer look

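Hspa8 in testes was flagged because KO replicate 7, at 343 CPM, stood far from the other 3 KO libraries at 258 to 260.2 CPM, with a gap of 0.974 of the group's range in log2 CPM, above Dixon's 95% critical value for 4 libraries. Of 58 groups so examined this was the only one flagged, where chance flags about 1 in 20. In the same library Hspa1b, Hspb1 and Bag3 were also the highest of the 4 KO libraries. Its Leydig cell genes summed to 1532 CPM, against 921 to 982 CPM in the other KO libraries, its Sertoli cell genes to 358 CPM, against 256 to 309 CPM, and its elongating spermatid genes to 6633 CPM, against 6951 to 8626 CPM. Their part in the Hspa8 value was not tested.

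The KO effect on Hsph1 was flagged because it differed between liver and cerebellum, by -0.571 on the log2 scale (limma adjusted p = 0.0226), with 3 of 4 KO liver libraries below every WT liver library and the KO cerebellum libraries on both sides of WT. The KO effect on Hspa2 differed between testes and cerebellum by -0.467 (limma adjusted p = 0.00513), with 4 of 4 KO libraries above every WT library in cerebellum and overlapping groups in testes. The latter is from a joint fit with TMM scaling. With each tissue fitted apart the effect in testes was -0.11 with TMM factors and 0.08 with quantile normalization.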

How the results depend on the processing

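Of 118 alternative values of the counts of calls, 75 stayed within 1.5 times the count reported, and of 1687 values for single genes 1516 kept their direction and side of the threshold. In cerebellum 1 member was called with sample quality weights, and the 68-gene list had 9 calls with DESeq2 and with the weights and 1 with no filter. In liver members had 0 calls with no filter and 2 with weights, and the list had 3 with TMM factors, 2 with edgeR, 5 with DESeq2 and 6 with weights. In testes members had 1 call with no filter, and the list had 11 with TMM factors, 14 with DESeq2 and 21 with weights. Over all genes, weights called 1757, 1705 and 6107 genes in cerebellum, liver and testes, against 1045, 757 and 3957 in the fits reported. The no-filter fits covered more genes (30564, 26375 and 39718). Leaving out single libraries gave 0 to 2, 0 to 1 and 1 to 2 called members in cerebellum, liver and testes, 0 to 14, 0 to 1 and 1 to 9 called list genes, 1 to 3 members whose KO effect differed between tissues and 9 to 10 that differed between WT tissues. The cause was not tested.

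Directions turned where differences were small. Dnajb1 in cerebellum became 0.0089 with TMM factors, 0.0153 with edgeR, 0.0147 with DESeq2 and 0.0087 with weights. In testes Hspa1b became 0.0645 with TMM factors, 0.0748 with edgeR, 0.0677 with DESeq2 and 0.0687 when summed with Hspa1a, and Hspa2 became -0.106, -0.107 and -0.111 with TMM factors, edgeR and DESeq2. With weights Hspa1a in testes became -0.183, its sum with Hspa1b -0.184, Hsp90aa1 0.0428 in testes and -0.0602 in liver, and Dnajb1 in testes 0.0261. With library totals alone the WT differences became -0.832 for Hspa8 and -0.684 for Dnajb1 (liver minus cerebellum), 0.0858 for Bag3 (testes minus liver) and -0.107 for Hspa1a (testes minus cerebellum). Without single libraries, signs turned within -0.00155 to 0.0663 (Hspa8), -0.105 to 0.0247 (Hsph1) and -0.0485 to 0.0476 (Dnajb1) in cerebellum, -0.0409 to 0.0537 (Hspa2) and -0.0314 to 0.179 (Hsp90aa1) in liver, and -0.0522 to 0.219 (Hspa1a), -0.172 to 0.130 (Hspa1b), -0.0414 to 0.190 (their sum), -0.0303 to 0.0405 (Hsp90aa1) and -0.0738 to 0.00140 (Dnajb1) in testes. They also did so for Hspb1 between the KO effects of liver and cerebellum (-0.251 to 0.00810) and for Hsph1 between WT testes and liver (-0.119 to 0.106).

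Replicate numbers are shared by tissues, not by WT and KO. Of 24 pairs of libraries with the same number, 6 had deviations correlated over 0.1 (range -0.188 to 0.254) and 10 correlated best with their own number, so the numbers were not taken as pairs. With the replicate block, the KO effect differed between testes and liver for Hspa8 (0.36, adjusted p = 0.0378) and Hsph1 (0.41, adjusted p = 0.0203), Hsph1 no longer differed between WT liver and cerebellum (-0.24, adjusted p = 0.0554), and its WT testes minus liver difference was -0.00930. The block changed no other call.

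At 18.5 to 60.0 counts per liver library Hspa1a was the least precise member, and Hspa1l was not tested between KO and WT outside testes.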
